A study of Homo sapiens with 60 samples.

Results

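Spheroids of the cell line HCT116, which derives from a human colon carcinoma, grew with 1 µM butyrate or with no added compound and were compared in each of 2 media, named Medium 1 and Medium 2 in the sample titles. The libraries were chosen by their sample titles and number 20 of the 60 in the series: 5 butyrate and 5 untreated libraries in Medium 1, and 5 and 5 in Medium 2. The other 40 libraries came from spheroids given 0.1 µM hemin, 1 µM kynurenine, both of these, or 1 µM kynurenic acid, again in both media. Exposure ran from day 1 to day 8 after seeding, and all groups grew in agarose moulds in the same high-glucose medium with serum. At the end the spheroids were either sampled at once or first moved to a nutrient-deprived medium, and the labels do not say which of these Medium 1 and Medium 2 stand for. The model is a single tumour line at a single dose, so it holds none of the other cells of the gut wall.

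Butyrate is a short-chain fatty acid that gut bacteria make from dietary fibre. Colon epithelial cells take it up through monocarboxylate transporters and burn it as fuel in their mitochondria. It also inhibits histone deacetylases, enzymes that remove acetyl groups from histones, and colon cancer cells treated with such inhibitors classically raise the cell cycle inhibitor CDKN1A, the linker histone H1F0, metallothioneins and markers of mature colonocytes. In culture these effects are usually studied at millimolar concentrations of butyrate.

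The 20 libraries count transcripts by their 3' ends, so long and short transcripts are counted alike, and each library held between 1574133 and 3083231 counts. The filter on low counts kept 11298 of 29744 genes. Among markers of colon epithelium, 8 of 15 could be tested. Their summed level was 1266 to 1864 CPM (counts scaled to a common library total) in Medium 1 and 1366 to 1630 CPM in Medium 2, but the mature enterocyte markers CDH17 and VIL1 were listed at 0 counts in all 60 libraries. Of 18 markers of blood, vessel, stromal and liver cells, only COL1A1 and ACTA2 could be tested, with summed levels of 2.61 to 21.98 CPM per library. A butyrate library of Medium 1 (well B2) lay furthest from the mean of its 4 replicates, at a root mean square log2 distance of 0.604. Those 4, each measured against the mean of its own other replicates, lay at 0.262 to 0.385. Each group occupied consecutive wells of the plate, so plate position and treatment differ together in part. Some plate rows hold both groups, and row was also fitted as a term.

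Few differences passed the test. In Medium 1 the RNA of 1 gene rose (0.00885% of the 11298 tested) and that of 0 genes fell (0%). This gene was ASNS, asparagine synthetase, which makes asparagine from aspartate and glutamine and is a known target of ATF4, the transcription factor of the amino acid stress response. In Medium 2 0 genes rose (0%) and 0 fell (0%). With both media averaged, 10 libraries against 10, again 0 rose (0%) and 0 fell (0%). Adjusted p-values of single genes are those of the quasi-likelihood test in edgeR, adjusted by Benjamini-Hochberg over the tested genes.

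Below an unadjusted p of 0.05 there were 569 genes higher (5.04%) and 396 lower (3.51%) in Medium 1, 167 higher (1.48%) and 234 lower (2.07%) in Medium 2, and 431 higher (3.81%) and 383 lower (3.39%) with media averaged. Without regard to direction these are 965, 401 and 814 genes, against 1001, 406 and 807 by limma-voom and 1144, 531 and 1019 by DESeq2. The smallest adjusted p was 0.56 in Medium 2 and 0.0644 with media averaged. By DESeq2 on the 20 libraries, however, 12 genes passed as higher and 8 as lower in Medium 1, and 5 and 12 with media averaged.

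The size of change that these libraries leave room for can be read from the intervals. With media averaged, the 95% interval of the log2 fold change lay wholly between -1 and 1, a 2-fold change in either direction, for 10673 of 11298 genes (94.47%), and within 1.5-fold for 71.75%. In Medium 1 alone the 2-fold bound held for 83.95% of genes, and in Medium 2 for 83.09%. The median standard error of a log2 fold change was 0.207 in Medium 1, 0.214 in Medium 2 and 0.149 with media averaged.

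ASNS lies on chromosome 7 from 97851677 to 97928441 (GRCh38.p14, whole gene span). Its promoter is shown because ASNS was the gene that passed and because ATF4 is known to bind a composite element in it. RefSeq lists 2 start sites for it. The 130 bases before the one with a match, at chr7:97872409-97872538 on the minus strand (GRCh38.p14), read as follows, with capitals for the match to TGATGNAA, a core of the elements that ATF4 binds with its partners of the C/EBP family.
ASNS: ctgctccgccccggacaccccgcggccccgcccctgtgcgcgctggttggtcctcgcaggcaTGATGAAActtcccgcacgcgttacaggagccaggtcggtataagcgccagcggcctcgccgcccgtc
The match covers bases -68 to -61 before the start. The 250 bases before the other start site, in the window chr7:97872116-97872415, hold 0 matches. Searched on both strands over the 250 bases before each start, this motif occurs at 3.14% of 35116 RefSeq start sites and before 3.89% of 27305 genes. It occurs before 7 of the 28 listed ATF4 targets that have a promoter entry (25%): ASNS, CHAC1, JDP2, SLC1A5, CEBPG, ATF3 and HERPUD1. ATF3 and HERPUD1 had log2 fold changes of 0.08 and -0.24 in Medium 1. A match of letters is a description of the sequence and shows no binding here.

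In untreated Medium 1 spheroids, ASNS stood at 123.3 CPM in well A1, 90.0 in B1, 71.5 in C1, 56.9 in D1 and 61.5 in E1. In butyrate spheroids it stood at 92.2 CPM in well F1, 373.9 in G1, 164.9 in H1, 154.2 in A2 and 173.6 in B2. Of the butyrate libraries 4 exceeded every untreated one, while F1 lay inside the untreated range and G1 was more than any other by a wide margin. The mean was 191.8 ± 106.7 CPM with butyrate and 80.66 ± 27.03 CPM without (SD, n = 5 each), which is 1.24 on the log2 scale (SE 0.236, 95% interval 0.77 to 1.71, adjusted p = 0.025). An exact permutation test of the 5 against 5 log2 CPM values gave a two-sided p of 0.0159, where 0.00794 is the smallest that the possible splits allow. ASNS was chosen by these same values, so this p adds no independent support.

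The ASNS call rested on single libraries. Without the butyrate library in well G1 its log2 fold change in Medium 1 was 0.85 with an adjusted p of 0.913. Without any 1 of the untreated libraries in B1, C1, D1 and E1 the adjusted p was 0.0646, 0.184, 0.242 and 0.303. It passed without each of the other 15 libraries in turn, with an adjusted p of 0.00384 without A1. It passed with RLE scaling in place of TMM (0.0236), with no filter (0.000243), with a filter at 10 CPM (0.018), with a robust fit (0.0482) and by DESeq2 on the 20 libraries (0.0301). It did not pass when edgeR was fitted to only the 20 libraries (0.162), only the 10 of Medium 1 (0.611), with limma-voom (0.114) or with plate row as a term (0.33).

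In Medium 2 untreated spheroids held 71.8 CPM of ASNS in well G4, 115.0 in H4, 80.8 in A5, 101.7 in B5 and 75.5 in C5. With butyrate the values were 114.9 CPM in D5, 124.4 in E5, 125.9 in F5, 74.3 in G5 and 135.7 in H5. The ranges overlap, although 3 of the 5 butyrate libraries lay above all untreated ones. The log2 fold change was 0.37 (95% interval -0.11 to 0.85, adjusted p = 1). The ASNS response in Medium 2 minus that in Medium 1 was -0.86 (95% interval -1.54 to -0.19), with an adjusted p of 0.982, so no difference between media passed. With media averaged, ASNS gave 0.81 (95% interval 0.47 to 1.14, adjusted p = 0.0644).

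**Figure D1:**
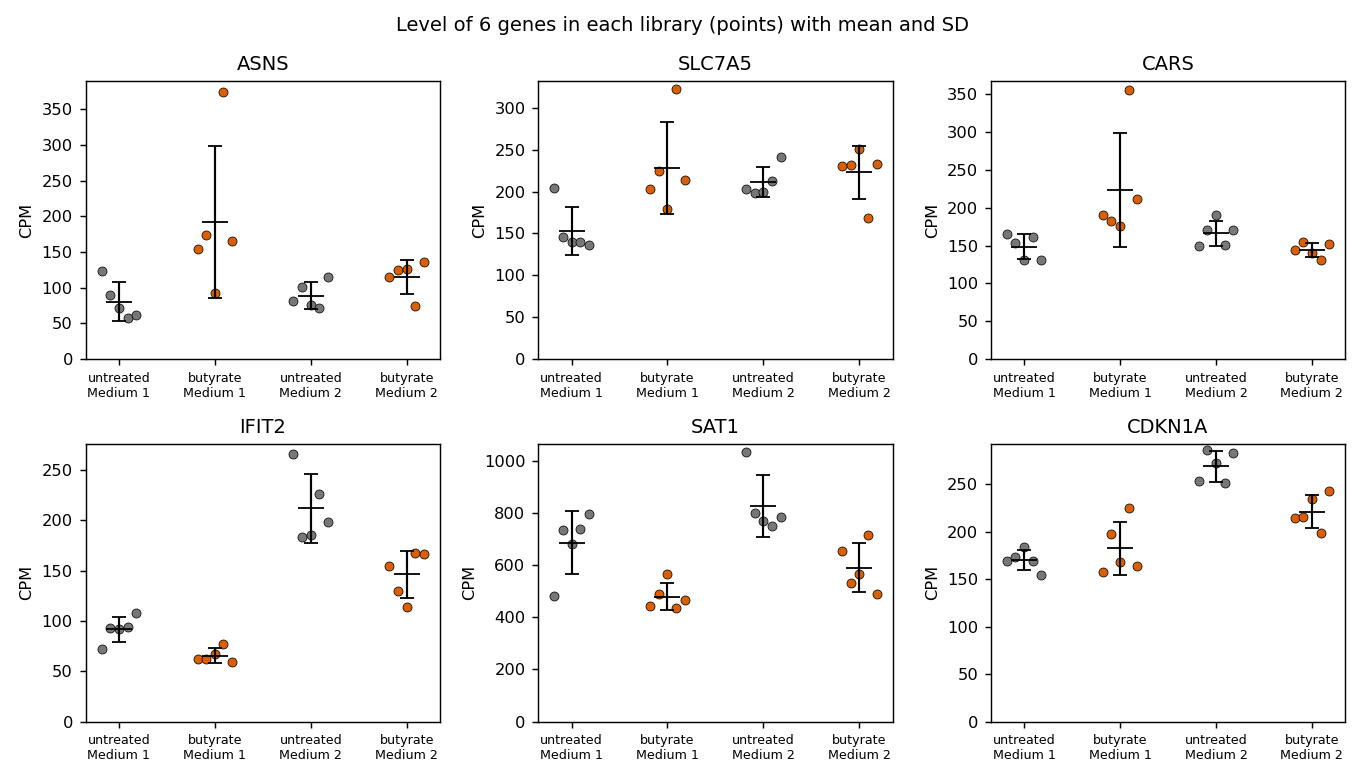
Level in CPM (vertical axes) of ASNS, SLC7A5, CARS, IFIT2, SAT1 and CDKN1A in each of the 20 libraries, with points for single libraries, grouped by treatment and medium. The ASNS panel shows the butyrate library of Medium 1 at 373.9 CPM above all others, and the IFIT2 and SAT1 panels show butyrate libraries of Medium 2 below all untreated ones.

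Among all 12 groups of the series, butyrate in Medium 1 had the highest ASNS mean, but its lead rests on G1. Without G1 the mean was 146.2 ± 36.9 CPM (SD, n = 4), nearly level with the next highest group mean of 146.1 CPM. In Medium 1 the other means were 138.9 ± 33.4 CPM with hemin, 102.9 ± 38.2 with hemin and kynurenine, 87.6 ± 8.23 with kynurenic acid and 77.4 ± 11.4 with kynurenine (SD, n = 5). In Medium 2 the highest mean was 146.1 ± 56.2 CPM with hemin and kynurenine, above the 115.0 ± 23.9 CPM with butyrate.

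Against the mean of the 4 other exposures in Medium 1, ASNS was again the gene that rose, 1 higher of 11298 (0.00885%) and 0 lower (0%), with a log2 difference of 0.94 (SE 0.172, adjusted p = 0.0102). Without the butyrate library in well G1 this difference was 0.55 with an adjusted p of 1. Of the 5 Medium 1 butyrate libraries left out in turn, 3 moved this count: 0 genes passed without G1, 7 without B2, and 3 without F1, namely ASNS, CARS and CHAC1. Against hemin alone, a comparison added after the values were seen, ASNS differed by 0.46 (95% interval 0.00 to 0.92, adjusted p = 0.856) with all libraries and by 0.07 without G1. In Medium 2 the difference from the other exposures was -0.05 (95% interval -0.43 to 0.32), and 0 genes passed in either direction (0% each).

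**Figure D2:**
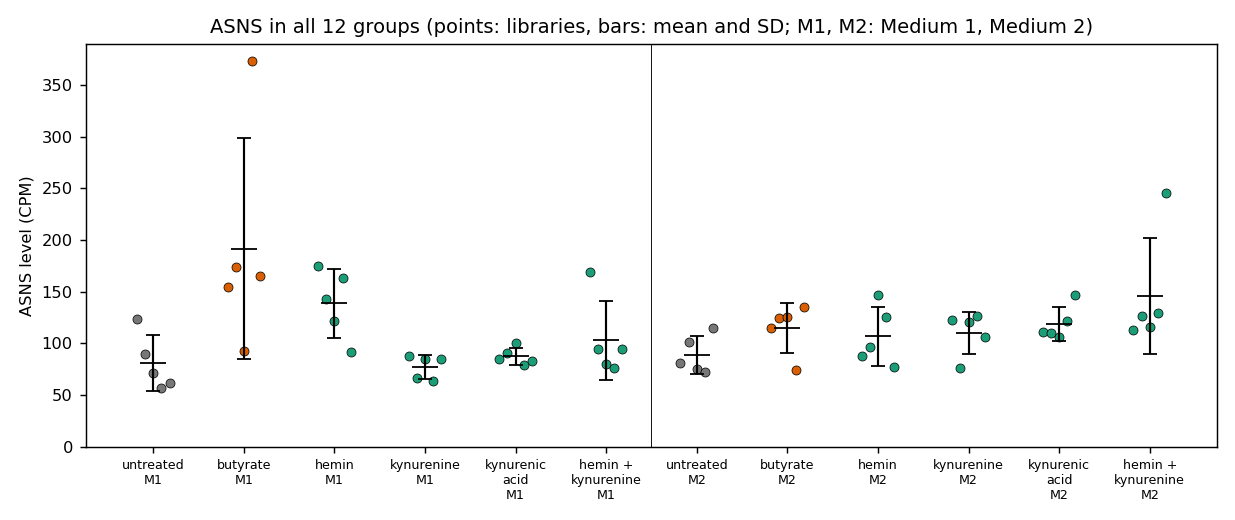
ASNS level in CPM (vertical axis) in all 12 groups of the series, points for the 5 libraries of each group with their mean and SD. Butyrate in Medium 1 has the highest mean, 191.8 CPM, and the widest spread, from 92.2 to 373.9 CPM.

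Other genes of the ATF4 response lay mostly on the higher side in Medium 1, and ASNS alone among them passed. Of 39 listed genes 34 could be tested. In Medium 1 their median log2 fold change was 0.29 against -0.00019 over all tested genes, 28 of 34 were positive where 49.9% of all genes were, and 13 were higher below an unadjusted p of 0.05 (background 5.04%). In Medium 2 the median was -0.03 and 11 of 34 were positive. CHAC1, which degrades glutathione, ATF4 itself, and SLC7A5, the large neutral amino acid transporter, had log2 fold changes in Medium 1 of 1.26, 0.62 and 0.58 with adjusted p-values of 0.464, 0.464 and 0.383. ATF4 stood at 809.1 CPM in B2 and 680.4 in G1 but at 318.2 to 408.5 CPM in F1, H1 and A2, inside or next to the untreated range of 299.6 to 408.4 CPM. The list's median in Medium 1 was 0.22 to 0.35 without any 1 of the 20 libraries and 0.21 without B2 and G1 together.

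SLC7A5 stood at 204.7, 145.2, 139.4, 139.2 and 135.9 CPM in untreated wells A1 to E1 of Medium 1. With butyrate it was 179.4 CPM in F1, 322.1 in G1, 213.6 in H1, 202.8 in A2 and 224.0 in B2. A single untreated library, A1, reached into the butyrate range. In Medium 2 its means were 211 ± 17.8 CPM without butyrate and 223 ± 31.9 CPM with it.

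CARS and SARS, which charge transfer RNAs with cysteine and serine, had no overlap between the Medium 1 groups. CARS ran from 130.8 to 165.3 CPM without butyrate and from 175.6 to 356.3 CPM with it, where G1 gave the top value and the next was 211.7. Its log2 fold change was 0.59 (adjusted p = 0.328). SARS ran from 59.3 to 74.0 CPM and from 78.7 to 157.5 CPM, with 0.60 (adjusted p = 0.302). Over all genes, 67 were higher without overlap in Medium 1 (0.593%) and 64 lower (0.566%), so 2 of the 20 testable tRNA synthetases were among the former. In Medium 2 CARS had a log2 fold change of -0.20, with 37 genes higher (0.327%) and 66 lower (0.584%) without overlap over the whole table. Both CARS and PHGDH, the first enzyme of serine synthesis, peaked in the same library as ASNS: PHGDH was 78.5 CPM in G1 and 40.55 to 47.01 CPM in its 4 replicates.

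The Medium 1 libraries also differed in other lists. Summed over the 17 testable hypoxia targets, the untreated library A1 held 998.9 CPM against 1651 to 2070 CPM in B1 to E1. Among butyrate libraries A2, G1 and H1 held 972.4, 1041 and 1200 CPM and F1 and B2 held 1635 and 1969 CPM. The oxidative stress targets of NRF2 went the other way, with 6650 CPM in A1, 7521 in A2, 7993 in G1 and 6130 in H1 and from 5009 to 5856 CPM in the remaining 6 libraries. Thus A1, A2, G1 and H1 were low in the first list and high in the second, and the highest untreated ASNS and SLC7A5 levels were also in A1. The part that this division of the libraries has in the ASNS result was not tested. Ribosomal RNA took 2.24% of counts in A1, 3.28% in B2 and 4.60 to 6.19% in the other 8 libraries of Medium 1.

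None of the known targets of histone deacetylase inhibition passed as higher. Of 28 listed genes 19 could be tested, and none of the 19 rose or fell in Medium 1, in Medium 2 or with media averaged (background 0.00885% higher in Medium 1, otherwise 0%). With media averaged their median log2 fold change was -0.13 against 0.00032 over all genes, 2 of 19 were positive where 50.1% of all genes were, and 0 were higher and 2 lower below an unadjusted p of 0.05 (background 3.81% and 3.39%). The upper end of the 95% interval was below 1, a 2-fold rise, in all 19. It was below that bound for 18 of 19 in each medium alone. The list's median was -0.0054 in Medium 1, with 9 of 19 positive (49.9% of all genes). It was -0.15 in Medium 2, with 4 of 19 positive (49.8% of all genes). Without well B2 the Medium 1 median was -0.13. Against the mean of the 4 other exposures it was -0.0090 in Medium 1 and 0.027 in Medium 2, with 8 and 10 of 19 positive. Listed genes that could not be tested include TXNIP, ALPI, TFF3 and MUC2, each at 0 counts over all 60 libraries. Whether a count of 0, here or for other genes, means absent RNA was not tested.

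CDKN1A, which encodes the cell cycle inhibitor p21, stood at 169.6, 173.2, 184.0, 168.9 and 154.4 CPM in untreated wells A1 to E1 of Medium 1. With butyrate it was 168.5 CPM in F1, 224.5 in G1, 164.3 in H1, 157.4 in A2 and 197.1 in B2. In Medium 2 the values were 250.9, 282.3, 252.9, 285.9 and 272.7 CPM in untreated wells G4 to C5, and 214.5, 215.3, 234.2, 198.3 and 242.7 CPM in butyrate wells D5 to H5. The ranges overlapped in Medium 1, and in Medium 2 every butyrate library lay below every untreated one. The log2 fold change was 0.10 (95% interval -0.14 to 0.34, adjusted p = 0.826) in Medium 1, where it was -0.056 without B2 and G1 together, -0.28 (-0.53 to -0.04, adjusted p = 1) in Medium 2 and -0.09 (-0.26 to 0.08) with media averaged. CDKN1A lies on chromosome 6 from 36676463 to 36687332.

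H1F0, the replacement linker histone, had means of 457 ± 64.4 CPM without and 371 ± 85.2 CPM with butyrate in Medium 1, and 364 ± 62.5 and 337 ± 49.1 CPM in Medium 2 (SD, n = 5). Averaged, H1F0 gave -0.21 on the log2 scale (95% interval -0.40 to -0.01, adjusted p = 0.682). The histone gene HIST1H2BK gave -0.20, the actin-severing protein gene GSN -0.13 and the metallothionein MT2A -0.07. The secreted lipase inhibitor gene ANGPTL4 varied widely: 3.06 to 19.5 CPM without and 6.87 to 28.04 CPM with butyrate in Medium 1, but 66.4 to 81.6 CPM without and 9.23 to 56.9 CPM with it in Medium 2. These Medium 2 ranges did not overlap, and the log2 fold change there was -1.01 (95% interval -1.73 to -0.28, adjusted p = 1). Among 30 colonocyte maturation genes only 9 passed the filter, with 0 called and an averaged median of -0.13. KRT20, a keratin of mature colonocytes, totalled 180 counts over all 60 libraries and was not tested.

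Genes known to fall under deacetylase inhibition did not pass either. All 10 listed could be tested, with an averaged median of 0.02. The growth regulator MYC had 74.0 ± 19.5 CPM without and 50.6 ± 16.7 CPM with butyrate in Medium 1, and 89.6 ± 20.8 and 82.0 ± 12.5 CPM in Medium 2, or -0.33 on the log2 scale when averaged (95% interval -0.76 to 0.09, adjusted p = 0.743). CCND1, which encodes cyclin D1, gave 0.22 (0.06 to 0.37, adjusted p = 0.593), on the higher side.

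**Figure D3:**
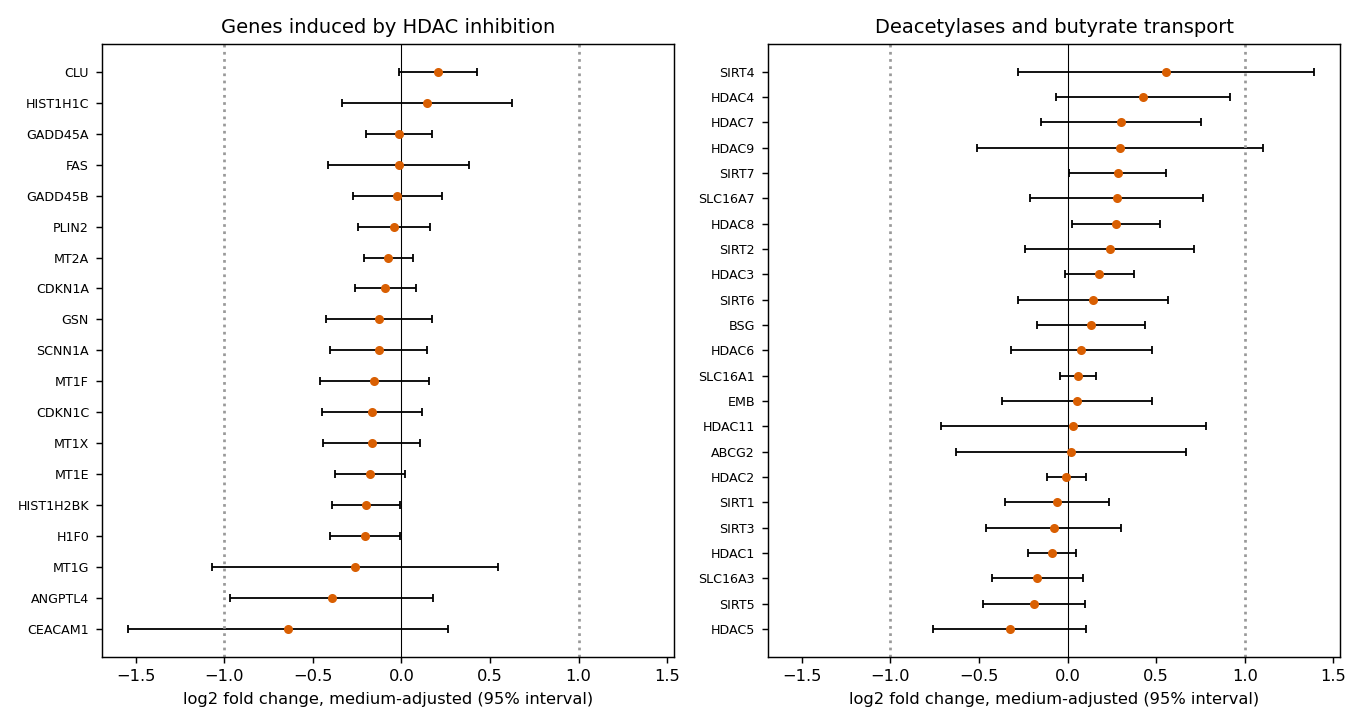
Averaged log2 fold change of butyrate against untreated (horizontal axis) with its 95% interval for the 19 testable genes known to rise under histone deacetylase inhibition, and for deacetylases and butyrate transport genes. Dotted lines mark -1 and 1, and no interval of the 19 reaches 1 on its upper side.

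The RNA of histone deacetylases, and of the sirtuins listed with them, was also measured. Of 18 listed deacetylases and sirtuins 17 could be tested and 0 passed in any of the 3 comparisons (background 0.00885% higher in Medium 1, otherwise 0%), as for nearly all genes. HDAC1 was 170 ± 21.4 CPM without and 150 ± 10.4 CPM with butyrate in Medium 1, and HDAC2 292 ± 20.8 and 302 ± 20.3 CPM. Averaged over media, HDAC1 gave -0.09 (95% interval -0.23 to 0.05) and HDAC2 -0.01 (-0.12 to 0.10). HDAC3 gave 0.18 (-0.01 to 0.37, adjusted p = 0.705), with well B2 at 117.5 CPM above its 4 replicates at 60.4 to 75.5 CPM. HDAC7 gave 0.94 in Medium 1 (adjusted p = 0.47) and -0.34 in Medium 2. The corepressor partners of histone deacetylases, 21 of 21 tested, had an averaged median of -0.0064 and all 21 intervals lay within 2-fold.

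The uptake route was measurable in part. SLC16A1, the monocarboxylate transporter that carries butyrate, stood at 315 ± 22.8 CPM without and 323 ± 12.7 CPM with butyrate in Medium 1, and at 353 ± 15.97 and 373 ± 25.5 CPM in Medium 2. Its averaged log2 fold change of 0.06 had one of the narrower intervals, from -0.04 to 0.16. Its chaperone BSG gave 0.13 (-0.17 to 0.44) and the lactate exporter SLC16A3 -0.17 (-0.43 to 0.09). The sodium-coupled transporter SLC5A8 had 1 count over all 60 libraries, and of the receptors for short-chain fatty acids FFAR2 had 6, FFAR3 had 0 and HCAR2 had 0.

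Enzymes that oxidise short-chain fatty acids did not pass either. Of 26 listed genes 23 could be tested, with medians of 0.04 in Medium 1, -0.04 in Medium 2 and -0.01 averaged, and all 23 averaged intervals lay within 2-fold. ACADS, the short-chain acyl-CoA dehydrogenase, gave 0.22 averaged (-0.14 to 0.57, adjusted p = 0.804) but -0.048 without B2 and G1, ACAT1, the mitochondrial thiolase, -0.38 (-0.82 to 0.07, adjusted p = 0.713), and CPT1A, which admits long-chain fatty acids to mitochondria, 0.13 (-0.05 to 0.32, adjusted p = 0.769).

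**Figure D4:**
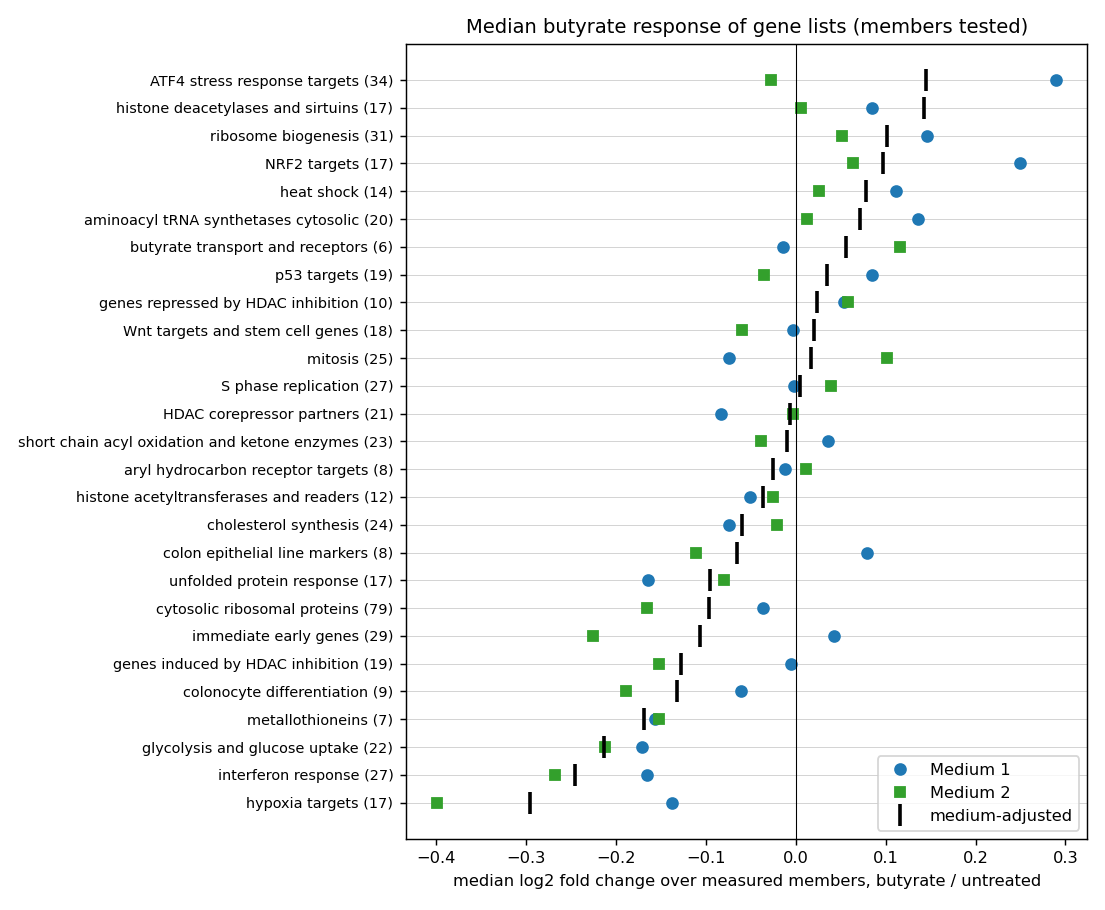
Median log2 fold change of butyrate against untreated (horizontal axis) for the 27 gene lists with at least 5 tested members, in Medium 1, in Medium 2 and averaged. Hypoxia, interferon and glycolysis lists have averaged medians of -0.30, -0.25 and -0.21, and the ATF4 list has 0.29 in Medium 1 and -0.03 in Medium 2.

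Genes of the interferon response lay mostly on the lower side with butyrate in both media, and none passed the threshold. Of 30 listed genes 27 could be tested. With media averaged 25 of 27 were negative, with a median of -0.25 against 0.00032 over all genes, and 15 were lower below an unadjusted p of 0.05 (background 3.39%). The medians were -0.17 in Medium 1 and -0.27 in Medium 2, and the averaged one lay between -0.26 and -0.21 without any 1 of the 20 libraries. Summed over the list, Medium 2 libraries held 2750 to 3304 CPM without butyrate and 2182 to 2563 CPM with it, ranges that do not overlap. In Medium 1 the sums were 1795 to 2094 CPM and 1529 to 2102 CPM, which overlap: B2 at 2102 CPM and G1 at 1812 CPM lay above the untreated A1 at 1795 CPM. Against the mean of the 4 other exposures in Medium 2, the list's median was 0.0007 and 14 of 27 were positive (49.2% of all genes). The lower side in Medium 2 was thus not particular to butyrate. In Medium 1 the same comparison gave -0.12, with 9 of 27 positive (52.5% of all genes).

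IFIT2, an interferon-induced protein that binds viral RNA, came closest to the threshold. In Medium 1 it stood at 72.6, 93.2, 91.7, 93.8 and 107.7 CPM in untreated wells A1 to E1, and at 67.1 CPM in F1, 77.5 in G1, 59.2 in H1, 61.8 in A2 and 62.5 in B2 with butyrate. In Medium 2 it was 225.7 CPM in G4, 198.6 in H4, 265.5 in A5, 183.6 in B5 and 185.5 in C5 without butyrate, and 154.3 CPM in D5, 129.8 in E5, 113.5 in F5, 167.3 in G5 and 166.1 in H5 with it. Butyrate libraries lay below all untreated ones in Medium 2 and overlapped with A1 in Medium 1. The log2 fold changes were -0.49 in Medium 1, -0.54 in Medium 2 and -0.51 averaged (95% interval -0.72 to -0.30, adjusted p = 0.0644).

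SAT1, which acetylates the polyamines spermidine and spermine and starts their breakdown, showed differences of like size. Untreated wells A1 to E1 of Medium 1 held 482.1, 732.7, 679.2, 737.9 and 795.4 CPM, and butyrate wells F1, G1, H1, A2 and B2 held 565.1, 434.3, 467.4, 441.6 and 487.7 CPM. In Medium 2 wells G4 to C5 held 749.9, 782.7, 1034, 797.7 and 768.1 CPM without butyrate, and D5 to H5 held 652.6, 530.9, 564.4, 715.1 and 488.0 CPM with it. They did not overlap in Medium 2, and in Medium 1 only A1 lay among the butyrate libraries. Averaged over media the value was -0.50 (95% interval -0.72 to -0.29, adjusted p = 0.0659). SAT1 lies on the X chromosome from 23783173 to 23786210 and IFIT2 on chromosome 10 from 89302046 to 89309271.

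Whether IFIT2 and SAT1 passed depended on the libraries fitted and on the gene filter. With the 20 libraries alone the averaged adjusted p was 0.0454 for IFIT2 and 0.0388 for SAT1, with no gene filter 0.0313 and 0.0166, by DESeq2 on those 20 libraries 0.000574 for both, and without A1 0.0175 and 0.0128. The other exposures also lay below untreated spheroids in Medium 2, with IFIT2 means of 146 ± 18.8 CPM with hemin, 139 ± 28.2 with kynurenine, 132 ± 13.4 with kynurenic acid and 114 ± 29.6 with hemin and kynurenine, beside 146 ± 23.7 with butyrate and 212 ± 34.4 without compound. Butyrate differed from the mean of these exposures by 0.15 for IFIT2 (95% interval -0.09 to 0.38) and by -0.02 for SAT1 (-0.26 to 0.22) in Medium 2. In Medium 1 these differences were -0.22 (-0.47 to 0.03) and -0.23 (-0.47 to 0.02). No departure of butyrate from the other exposures thus passed for either gene.

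Other members of the IFIT family were on the lower side too. IFIT1 stood at 498.5 to 578.9 CPM without and 310.7 to 470.9 CPM with butyrate in Medium 2, which is -0.46 on the log2 scale (SE 0.109, adjusted p = 0.56), the smallest p of that medium, but gave -0.10 in Medium 1. IFIT3 gave -0.32 in each medium and averaged (adjusted p = 0.374). IRF9, a subunit of the transcription factor that interferon activates, gave -0.73 averaged at a low level of 5.34 to 12.7 CPM in the group means. The promoters of IFIT1 and IFIT3 are shown because IFIT1 had the smallest p in Medium 2 and IFIT3 is of the same family. Each sequence is the 130 bases before a start site (RefSeq, GRCh38.p14, plus strand), at chr10:89392493-89392622 for IFIT1 and chr10:89332399-89332528 for IFIT3. Capitals mark the core of the interferon-stimulated response element, searched as GAAA, any 2 bases and GAAA again. The matches are on the other strand, so they read here as TTTC, 2 bases and TTTC.
IFIT1: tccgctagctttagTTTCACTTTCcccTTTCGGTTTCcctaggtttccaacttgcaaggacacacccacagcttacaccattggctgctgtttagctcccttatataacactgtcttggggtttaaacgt
IFIT3: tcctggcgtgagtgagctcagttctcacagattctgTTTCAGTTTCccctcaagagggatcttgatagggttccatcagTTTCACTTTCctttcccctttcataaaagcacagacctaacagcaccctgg
Each holds 2 matches. IFIT3 has another start site, and the 250 bases before it, in the window chr10:89327747-89328046, also hold 2 matches. The IFIT3 site shown was picked by the match nearest to a start. Over the 250 bases before each start, searched on both strands, the motif occurs before 11 of the 22 interferon list genes with an entry (50%) and before 3.71% of 27305 genes. The matches describe these letters and show no binding here.

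Genes of hypoxia and glycolysis also lay mostly on the lower side, and none passed. Of 17 testable hypoxia targets 15 were negative with media averaged, with a median of -0.30, and 7 were lower below an unadjusted p of 0.05 (background 3.39%). All 22 glycolysis and glucose uptake genes were negative, with a median of -0.21, and 9 were lower below that p. Over all genes 50.1% were positive and the median was 0.00032. The glucose transporter SLC2A1 gave -0.35 (adjusted p = 0.584), the mitophagy receptor BNIP3L -0.59 (adjusted p = 0.509) and lactate dehydrogenase LDHA -0.30 averaged. The hypoxia sums in Medium 2 were 2119 to 2323 CPM without butyrate, and 1717 CPM in D5, 1648 in E5, 1792 in F5, 2067 in G5 and 1240 in H5 with it. These do not overlap, whereas the Medium 1 sums overlapped over nearly their whole range, as given above. The median of the hypoxia list was -0.14 in Medium 1 and -0.40 in Medium 2, and -0.38 in Medium 1 without well B2. Against the mean of the 4 other exposures it was -0.28 in Medium 1 and -0.11 in Medium 2. For the glycolysis list that comparison gave -0.13 and -0.22.

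ANKRD37, a small target of hypoxia-inducible factors, was among the genes with the smallest p in Medium 2. It stood at 163.0 CPM in G4, 140.3 in H4, 160.5 in A5, 188.2 in B5 and 230.1 in C5 without butyrate, and at 94.6 CPM in D5, 102.3 in E5, 111.6 in F5, 89.8 in G5 and 35.3 in H5 with it. All 5 butyrate libraries were lower, H5 most of all, and the log2 fold change was -1.02 (95% interval -1.52 to -0.53, adjusted p = 0.56). In Medium 1 ANKRD37 was near 15 CPM without and 13.6 CPM with butyrate, a log2 fold change of -0.14. The butyrate mean there includes well B2 at 25.39 CPM, where its 4 replicates held 10.04 to 11.78 CPM. The lipid droplet gene HILPDA likewise gave -0.64 in Medium 2 (adjusted p = 1) and 0.17 in Medium 1.

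Some further genes had small p-values without passing by edgeR. In Medium 1 the growth factor KITLG, the ligand of the receptor KIT, stood at 829.5 to 973.2 CPM without and 465.0 to 741.5 CPM with butyrate, with no overlap and -0.53 on the log2 scale (adjusted p = 0.378). By DESeq2 on the 20 libraries KITLG passed in Medium 1 with an adjusted p of 0.000149, the smallest there. In Medium 2 it gave -0.04. LRRC8C, a subunit of volume-regulated anion channels, gave -0.86 and CPOX, an enzyme of heme synthesis, -0.59 in Medium 1. On the higher side of Medium 1 were SWI5, a recombination factor at a low level of 5.53 to 12.6 CPM in the group means, with 1.17 (adjusted p = 0.274), DPH2, which takes part in making diphthamide, with 0.56, AUP1, of lipid droplets and protein degradation at the endoplasmic reticulum, with 0.65, NOP9, of ribosome assembly, with 0.89, and SRP72, of the signal recognition particle, with 0.34 (adjusted p = 0.3 for these 4). CPOX, AUP1, NOP9, SRP72 and DPH2 passed by DESeq2, with adjusted p-values of 0.0201, 0.0236, 0.0255, 0.0353 and 0.0371, as did SLC7A5, CARS and SARS (0.0371, 0.0415 and 0.0415). In Medium 2 the higher side was led by PAN3, COMMD5 and CNTRL with 0.76, 0.53 and 0.86 (adjusted p = 1 for each).

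With media averaged, ANAPC7, a subunit of the ligase that drives mitotic exit, gave 0.39 (adjusted p = 0.299). It was 57.4 to 65.8 CPM without and 62.9 to 86.3 CPM with butyrate in Medium 1, and 45.6 to 54.4 and 62.0 to 72.8 CPM in Medium 2. The mitochondrial transfer RNAs TRNF and TRNY gave 0.60 and 0.79, the centromere protein gene CENPM 0.55 and the mitochondrial hydratase AUH -0.56, with adjusted p-values of 0.374, 0.374, 0.374 and 0.299. By DESeq2 on the 20 libraries ANAPC7, TRNF, TRNY and AUH passed, at 0.0127, 0.0415, 0.0255 and 0.0255. SOX4, a transcription factor of progenitor cells, gave -0.34 (adjusted p = 0.354), from 448 ± 38.98 to 355 ± 114 CPM in Medium 1 and from 523 ± 54.8 to 414 ± 36.4 CPM in Medium 2. Well B2 held 548 CPM of SOX4 where its 4 replicates held 264 to 354 CPM, and without B2 the averaged value was -0.44 with an adjusted p of 0.00184.

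The responses in the 2 media can be set side by side, since they share no libraries. Across the 8741 genes with a mean of at least 10 CPM, Pearson's r of the log2 fold changes was 0.128 and Spearman's rho 0.128, a description over genes that are not independent, and 4743 (54.3%) had the same sign. Of 127 genes higher in Medium 1 below an unadjusted p of 0.01, 79 (62.2%) were positive in Medium 2, where 50.5% of all these genes were, and of 73 lower genes 51 (69.9%) were negative. Chosen in Medium 2 instead, 14 of 23 higher genes (60.9%) were positive in Medium 1, where 50.3% of all these genes were. Of 46 lower genes 28 (60.9%) were negative there. No gene was free of overlap in the same direction in both media, 0 higher and 0 lower (0% each).

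**Figure D5:**
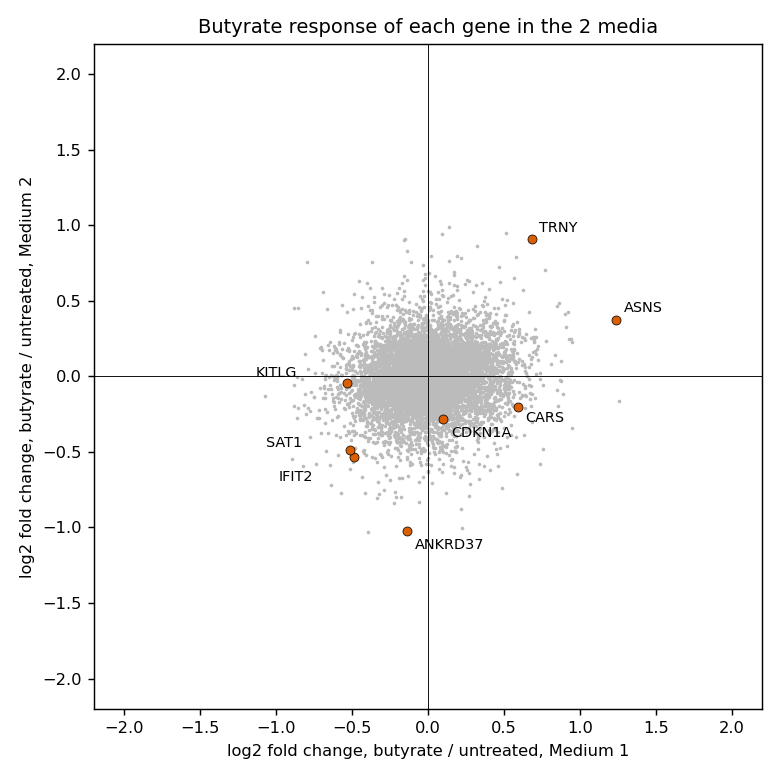
Log2 fold change of butyrate against untreated in Medium 1 (horizontal axis) and in Medium 2 (vertical axis) for the 8741 genes with a mean of at least 10 CPM, with some named genes marked. The cloud is nearly round, with a Pearson r of 0.128 across genes.

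The difference between the responses was tested as an interaction, and 0 genes were higher (0%) and 0 lower (0%) in Medium 2 than in Medium 1, with 483 below an unadjusted p of 0.05, against 494 by limma-voom and 607 by DESeq2. The smallest adjusted p was 0.212 for ZNF692, a zinc finger gene at low level. It stood at 4.24 to 6.78 CPM without and 7.54 to 14.1 CPM with butyrate in Medium 1, and at 3.24 to 4.82 without and 0 to 2.46 CPM with it in Medium 2, a difference of -2.98 (SE 0.642) with no overlap in either medium. KANK2, which links focal adhesions to the cytoskeleton, went the other way, from 35.2 ± 3.77 to 27.1 ± 3.08 CPM in Medium 1 and from 28.1 ± 4.22 to 37.6 ± 3.55 CPM in Medium 2, a difference of 0.79 (SE 0.203, adjusted p = 0.702). CARS and PAF1, a subunit of a complex that travels with RNA polymerase II, differed by -0.79 (adjusted p = 0.982) and -0.83 (adjusted p = 0.702).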

How the data were processed

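The deposited table holds estimated counts per gene, made by the authors with Salmon 1.5.2. Other tools in the submitters' processing notes are STAR, cutadapt 3.4, UMI-tools 1.1.2 and FastQC 0.11.9, with GRCh38 as the genome. The settings, and the treatment of reads that fit more than 1 gene, were not given in the sources used here. Per the labels' protocols the libraries were made with a QuantSeq 3'-end kit that adds unique molecular identifiers. Of the deposited estimated counts, 10.1% were not whole, and all were rounded before testing. Intervals and p-values cover the spread between these samples, which the labels call biological replicates without saying whether they came from separate cultures. No pair of replicates was identical or within sampling noise (chi-square per degree of freedom 2.35 to 20.8 over 40 pairs).

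Groups were taken from the titles. A treatment field that reads the same for all 60 samples was not used. The columns name the group and a plate well, and libraries are called by well. Genes were kept by edgeR's filterByExpr (minimum count 10, minimum total 15), and 1 quasi-likelihood model of edgeR 4.0.16 in R 4.3.3 was fitted to all 60 libraries with TMM scaling and 12 group means (48 residual degrees of freedom). Contrasts were butyrate against untreated in each medium, their average, their difference, and butyrate against the mean of the 4 other exposures. P-values were adjusted by Benjamini-Hochberg over 11298 genes with a threshold of 0.05. Log2 fold changes are butyrate minus untreated. CPM values use TMM scaling and are compared between libraries.

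The members, gene lists and tests were chosen with earlier results of these data known. By rule, the text could name genes that passed, in each contrast the 6 per direction with the smallest p and at least 10 CPM in the higher group, 3 members of each list, and 25 genes of butyrate and ATF4 biology whatever their result. Further list members are named for what they are known to do, after their values were seen. Alternatives were RLE scaling, no filter, a filter at 10 CPM, fewer libraries, limma-voom (limma 3.58.1), DESeq2 1.42.0 on the 20 libraries, plate row as a term, and each library left out in turn. A robust fit and the joint removal of wells B2 and G1 were chosen after seeing the data. Promoters and coordinates came from RefSeq (GRCh38.p14) by symbol.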

Additional observations from a re-analysis of the deposited data

Results flagged for a closer look

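In each group of 5 libraries, the highest and lowest value of 32 reported genes, list sums and library distances was compared with the rest by Dixon's test at the 95% level, which chance alone passes in about 1 group in 20. Of 128 such groups, 15 held a library that stood apart.

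The butyrate library of Medium 1 in well G1 stood apart for ASNS, at 373.9 CPM where its 4 replicates lay at 92.22 to 173.6, for CARS, at 356.3 CPM against 175.6 to 211.7, and for PHGDH, at 78.51 CPM against 40.55 to 47.01. All 3 genes act in amino acid supply or use. Well B2 of the same group stood apart for HDAC3 (117.5 CPM against 60.44 to 75.49), ANKRD37 (25.39 against 10.04 to 11.78) and SLC16A1 (301.3 against 325.3 to 332.2), and well H1 for ANAPC7 (62.92 CPM against 81.34 to 86.35).

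Among untreated libraries, well A1 of Medium 1 held 204.7 CPM of SLC7A5 against 135.9 to 145.2, B1 held 408.4 CPM of ATF4 against 299.6 to 324.6, D1 held 59.32 CPM of SARS against 69.75 to 73.97, and A5 of Medium 2 held 1034 CPM of SAT1 against 749.9 to 797.7. In Medium 2 with butyrate, H5 held 35.29 CPM of ANKRD37 against 89.79 to 111.6 and a sum of 7141 CPM over the NRF2 targets against 6195 to 6436. There, G5 held 168 CPM of SLC7A5 against 230.3 to 251.2, and F5 held 60.03 CPM of MYC against 84.56 to 90.09.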

How the results depend on the processing

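The count of 1 gene in Medium 1 became 0 when only the 20 libraries or only the 10 libraries of the medium were fitted, with limma-voom, with plate row as a term and without wells B2 and G1 together, and 20 with DESeq2 on the 20 libraries, which changes both the tool and the libraries. Leaving out single libraries gave 0 to 2. The count of 0 with media averaged became 3 with no filter (ASNS, SAT1 and IFIT2), 2 with the 20 libraries fitted, with or without an interaction (IFIT2 and SAT1), 17 with DESeq2 on those libraries and 1 without B2 and G1 (SOX4), and ran from 0 to 3 without single libraries: 3 without A1 or G5, 1 without B2 (SOX4) and 1 without F1 (ASNS). In Medium 2 it was 0 to 0, and for the difference between media 0 to 1, where ZNF692 passed without E5. RLE scaling, the 10 CPM filter and the robust fit left each of these counts within 1.5 times its value. Of 121 single-gene values 16 changed sign, none of them past the threshold. Without B2 and G1, in Medium 1 CDKN1A became -0.056, ACADS -0.084, CPT1A -0.11, GSN -0.0977, ANGPTL4 -0.0634 and MT2A -0.0749, and averaged ACADS became -0.048 and HDAC2 0.00285. In Medium 2 plate row as a term gave HDAC3 -0.0865 and PHGDH 0.11, and HDAC1 became 0.00428 with the 10 libraries of the medium and 0.00187 with DESeq2. Leaving out single libraries changed the sign of 13 values. In Medium 1 these were ANGPTL4 (from -0.177 to 0.442), CPT1A (from -0.0676 to 0.139), GSN (from -0.082 to 0.143) and MT2A (from -0.0335 to 0.0614). In Medium 2 they were ACADS (from -0.0822 to 0.0861), ATF4 (from -0.113 to 0.0121), BSG (from -0.0122 to 0.214), DDIT3 (from -0.161 to 0.0563), HDAC1 (from -0.0443 to 0.0319), HDAC3 (from -0.0364 to 0.0814), MYC (from -0.224 to 0.00905) and PHGDH (from -0.0919 to 0.0214). Averaged it was HDAC2 (from -0.0241 to 0.0184). The cause of these changes was not tested. No paired analysis was possible because the columns carry plate wells and no replicate numbers. With 1346135 to 3083231 counts per library and 5 libraries a group, the median standard error of a log2 fold change was 0.207 in Medium 1.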

Other observations

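Some lists outside the report had values on one side in a single medium. Cytosolic ribosomal protein genes, the structural parts of the ribosome, had a median log2 fold change of -0.165 with butyrate in Medium 2, where 1 of 79 was positive (49.8% of all genes), and of -0.036 in Medium 1, where 34 of 79 were. None passed in either medium, 9 were lower in Medium 2 below an unadjusted p of 0.05 (2.07% of all genes), and the Medium 2 median ran from -0.197 to -0.14 without single libraries. Immediate early genes, which respond first to growth factors, had medians of 0.042 in Medium 1 and -0.226 in Medium 2, with 5 of 29 positive in the latter. In Medium 1 that median changed sign under 2 of the 10 other settings and without 1 of the 20 libraries.

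Ribosome assembly factors had medians of 0.146 and 0.051, with 24 and 21 of 31 positive. For 5 metallothioneins, the transcription factor MTF1 and the zinc transporter SLC30A1, the 7 testable genes of 1 list, the averaged median was -0.169 with 0 positive (50.1% of all genes). Genes of S-phase replication and of mitosis, at 27 and 25 tested, had averaged medians of 0.0044 and 0.0175. All of their averaged intervals lay within 2-fold.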
